A study of Mus musculus with 7 samples.

Results

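Replication-dependent histone genes encode the bulk histones that package newly made DNA, and their expression was examined here in mouse pluripotent cells with and without Nanog, a transcription factor of the pluripotent state. This gene family was chosen with earlier results of these data known, and its members were then taken by symbol. The rule was every gene whose array annotation starts with Hist1h, Hist2h, Hist3h or Hist4h, or carries the newer H1, H2A, H2B, H3 or H4 cluster names, on a probe set annotated with 1 symbol. In the annotation 63 symbols met this rule, and 26 of them had a probe set of their own (5 of H1, 6 of H2A, 8 of H2B, 7 of H4 and 0 of H3), out of 22180 genes measured. The other 37 symbols, including all 12 of H3, appear only on probe sets that list several genes and are described as probe sets further on. Of the 26 members, 21 lie on chromosome 13 and 5 on chromosome 3.

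The study measured RNA on 7 single-colour Affymetrix arrays of 129 strain mouse cells: 2 of Nanog KO induced pluripotent stem cells (iPSC), 2 of WT iPSC, 1 of WT embryonic stem cells (ESC), 1 of Nanog KO embryonic fibroblasts (MEF) and 1 of WT MEF. The iPSC replicates are labelled biological, and whether they are separate lines is not given in the sources used here. If they are not, the p-values cover only the spread between these samples. Media for ESC, for 2i/LIF culture and for MEF are listed in the labels without saying which sample had which, so genotype and medium cannot be told apart. The stated aim was to set Nanog KO iPSC against WT pluripotent cells, here the 3 arrays of WT iPSC and WT ESC. In whole populations of cells, fewer cells of a kind and less RNA per cell cannot be told apart either.

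DNA is wound around an octamer of the core histones H2A, H2B, H3 and H4, and the linker histone H1 binds where it enters and leaves. Replication-dependent histone genes lie in clusters and are transcribed mainly in S phase, driven by cyclin E and CDK2 acting on NPAT. Their mRNAs end in a stem-loop, bound by SLBP, instead of a poly(A) tail. The clusters also hold germline variants: H2ac1 and H2bc1 encode TH2A and TH2B, known in mice from testis and oocytes, and H1f6 encodes the testis linker histone H1t. TH2A and TH2B have been reported to aid reprogramming of mouse somatic cells.

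The promoters of 4 members are shown because the results turn on these genes: H2ac1, H2bc18 and H1f6 were lower in KO iPSC, and H2bc12 was higher in iPSC than in MEF. Each sequence is the RefSeq window of the build GRCm38.p6, from 250 bases before to 50 after the annotated start, 300 bases in all. Capitals mark matches on either strand to any of these motifs: the NF-Y motif, spelled CCAAT, the core promoter motif spelled TATAAA, the octamer of H2A and H2B promoters, spelled ATTTGCAT, and the E2F motif, spelled TTTNGCGC. None of these spellings is contained in another.
H2ac1 (chr13:23934187-23934486, + strand): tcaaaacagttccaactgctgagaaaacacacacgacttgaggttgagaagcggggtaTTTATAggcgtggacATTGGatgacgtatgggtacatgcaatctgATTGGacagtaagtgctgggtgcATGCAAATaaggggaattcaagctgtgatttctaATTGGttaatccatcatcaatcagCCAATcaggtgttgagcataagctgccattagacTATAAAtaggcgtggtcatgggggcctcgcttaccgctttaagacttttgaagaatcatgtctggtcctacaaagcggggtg
H2bc18 (chr3:96269450-96269749, + strand): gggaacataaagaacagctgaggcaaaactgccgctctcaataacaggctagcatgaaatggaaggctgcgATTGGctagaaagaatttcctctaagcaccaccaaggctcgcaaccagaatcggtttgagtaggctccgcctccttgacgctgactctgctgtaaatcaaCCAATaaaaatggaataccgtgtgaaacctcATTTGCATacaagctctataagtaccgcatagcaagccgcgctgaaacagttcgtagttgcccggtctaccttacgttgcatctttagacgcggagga
H1f6 (chr13:23695561-23695860, + strand): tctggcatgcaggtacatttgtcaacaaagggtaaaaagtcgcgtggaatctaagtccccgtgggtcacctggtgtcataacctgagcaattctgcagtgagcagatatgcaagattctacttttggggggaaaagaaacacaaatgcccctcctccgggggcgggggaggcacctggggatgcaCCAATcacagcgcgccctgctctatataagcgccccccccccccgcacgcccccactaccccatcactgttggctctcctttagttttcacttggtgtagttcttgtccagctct
H2bc12 (chr13:22035571-22035870, + strand): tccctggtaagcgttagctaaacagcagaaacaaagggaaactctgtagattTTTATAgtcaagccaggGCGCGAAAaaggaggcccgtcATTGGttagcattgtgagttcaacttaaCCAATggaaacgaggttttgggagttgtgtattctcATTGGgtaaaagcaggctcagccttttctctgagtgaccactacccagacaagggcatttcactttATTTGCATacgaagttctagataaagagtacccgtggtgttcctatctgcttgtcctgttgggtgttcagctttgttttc
The window of H2ac1 held 4 matches to CCAAT, 2 to TATAAA and 1 to the octamer. H2bc1 starts 281 bases from H2ac1 and runs the opposite way, so that 220 of the 300 bases shown belong to its window too. H2ac12 and H2bc12 form a like pair, with starts 178 bases apart and 277 shared bases.

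A window was found for 24 of the 26 members, all but H2bc21 and H4c14. CCAAT occurred in 5 of 5 H1, 6 of 6 H2A, 7 of 7 H2B and 1 of 6 H4 windows, against 37.4% of all 32851 windows. TATAAA occurred in 16 of 24 member windows, or 66.7%, against 13.6% of all windows. The octamer occurred in 3 of 6 H2A and 5 of 7 H2B windows and in 0 of the 5 H1 and 6 H4 windows, against 1.74% of all. TTTNGCGC occurred in 5 of 24 member windows, or 20.8%, against 1.38% of all. These matches describe the letters of the windows, and the paired genes share part of them.

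Nanog itself was 7.50 and 7.44 on the log2 intensity scale on the KO iPSC arrays, against 12.84 and 12.76 in WT iPSC and 12.73 in WT ESC. It was 6.42 in KO MEF and 6.53 in WT MEF, near background in both, so it checks the genotype labels of the pluripotent cells and not those of MEF. Background was judged on each array from 1390 odorant and pheromone receptor genes (symbols of the olfactory and vomeronasal families): their 95th percentile, called the background yardstick here, lay between 6.30 and 6.50. Median levels of 8 pluripotent cell markers were 10.91 and 10.93 in KO iPSC, 11.27 and 11.36 in WT iPSC and 11.15 in WT ESC, against 5.80 in KO MEF and 5.87 in WT MEF. By the test used below 2 of the 8, Utf1 and Tdgf1, were lower in KO iPSC and 0 were higher, beside 8.81% and 6.89% of all genes. Dppa5a, also among the 8, lay between 6.24 and 6.58 on all 7 arrays, near the yardstick in MEF and pluripotent cells alike. Fibroblast markers differed between pluripotent arrays: the median of 11 was 7.13 and 6.70 in KO iPSC, against 9.92 and 8.02 in WT iPSC and 8.92 in WT ESC. Their log2 summed intensity was 10.67 and 10.59 in KO iPSC, against 14.85 and 13.12 in WT iPSC and 14.002 in WT ESC, and 5 of the 11 were lower in KO iPSC by the test used below. In MEF the summed value was 16.28 for KO and 15.98 for WT. The fibroblast genes differed among themselves: Lum was below the yardstick on all 5 pluripotent arrays, and in MEF it was 10.60 for KO and 5.09 for WT, while Acta2 was 7.99 and 8.08 in KO iPSC, against 12.76 and 11.91 in WT iPSC and 11.84 in WT ESC. The part of the fibroblast genes in the histone results was not tested.

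Levels of the 26 members ran from 3.70 to 13.08 on the log2 scale. Of these, 10 members were above the yardstick on all 7 arrays and 6 on none. The count above it was 11 and 12 in KO iPSC, 13 and 18 in WT iPSC, 18 in WT ESC, 12 in KO MEF and 15 in WT MEF.

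**Figure D1:**
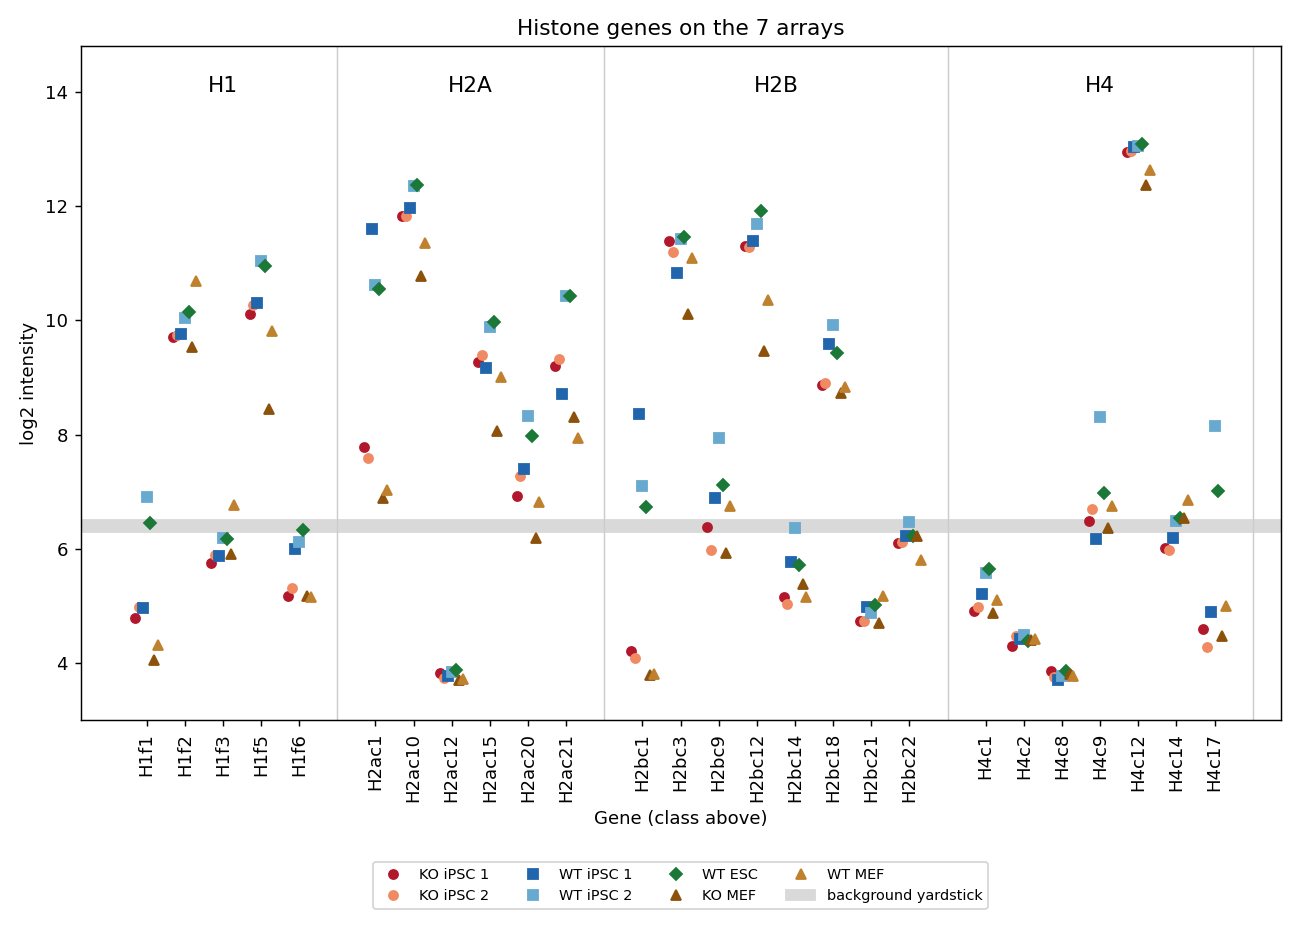
Log2 intensity of each of the 26 members, by class, on the 7 arrays, with 1 point per array and the range of the background yardstick (6.30 to 6.50) as a grey band. H2ac1 and H2bc1 separate the WT pluripotent arrays from the KO iPSC and MEF arrays most widely, while H4c12 lies between 12.38 and 13.08 throughout.

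In KO iPSC, 5 histone genes were lower than in WT pluripotent cells and 0 were higher. The TH2A gene H2ac1 and the TH2B gene H2bc1 differed by the most among the 5, and the others were the linker histone gene H1f6 and the H2B genes H2bc18 and H2bc14. Genes passed the test when limma's p-value, adjusted by Benjamini-Hochberg over all 22180 genes, was under 0.05. Among all genes 8.81% were lower and 6.89% were higher, against 5 and 0 of the 26 members, and at an unadjusted p under 0.05 limma gave 13 lower and 0 higher members, beside 16.1% and 15.5% of all genes. The KO minus WT difference was negative for 24 of the 26 members, with a median of -0.47 on the log2 scale, beside a median of 0.03 over all genes. By class the median was -0.57 for H1, -0.50 for H2A, -0.57 for H2B and -0.40 for H4. Both KO iPSC arrays lay below all 3 WT pluripotent arrays for 17 members and above all of them for 0, while 23.2% and 28.4% of all genes did so.

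H2ac1 was 7.79 and 7.59 in KO iPSC, against 11.59 and 10.62 in WT iPSC and 10.54 in WT ESC. It was 6.89 in KO MEF and 7.03 in WT MEF. All 3 WT pluripotent arrays were thus far above the other 4, and the groups did not overlap. H2ac1 fell by 3.23 on the log2 scale in KO iPSC relative to WT pluripotent cells (SE 0.33, limma adjusted p = 0.0036), a 9.37-fold lower level.

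H2bc1, its divergent neighbour, was 4.21 and 4.10 in KO iPSC, against 8.36 and 7.11 in WT iPSC and 6.73 in WT ESC. It was 3.80 in both KO MEF and WT MEF. Only the 3 WT pluripotent arrays were above the background yardstick. The log2 difference was -3.25 (SE 0.47, limma adjusted p = 0.0097), and since KO iPSC gave only a bound, H2bc1 was at least 1.90-fold lower. The order of the 3 WT pluripotent arrays was the same for both genes, with WT iPSC 1 highest. The order of the other arrays is not read, since H2bc1 was under the yardstick there.

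Among the linker histones, H1f6, which encodes the testis variant H1t, was 5.17 and 5.31 in KO iPSC, against 5.999 and 6.11 in WT iPSC and 6.33 in WT ESC. Its log2 difference was -0.90 (SE 0.12, limma adjusted p = 0.00822), but only the WT ESC value exceeded the yardstick, so no fold is given. The other 4 H1 members did not pass the test. H1f1 was 4.78 and 4.98 in KO iPSC, against 4.97 and 6.90 in WT iPSC and 6.45 in WT ESC, and the difference of -1.23 (SE 0.55) had an adjusted p of 0.195 in limma. WT iPSC 1 lay with the KO arrays in this gene.

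The somatic linker histone genes H1f2, H1f3 and H1f5 differed by -0.26, -0.25 and -0.57 on the log2 scale between KO iPSC and WT pluripotent cells, with limma adjusted p of 0.238, 0.236 and 0.157. H1f5 was 10.12 and 10.27 in KO iPSC, against 10.31 and 11.04 in WT iPSC and 10.95 in WT ESC. Its KO arrays were the lowest of the 5, by a margin smaller than the gap between the WT iPSC replicates. H1f2 was 9.70 and 9.75 in KO iPSC, against 9.76 and 10.04 in WT iPSC and 10.14 in WT ESC. H1f3 was 5.75 and 5.90 in KO iPSC, against 5.88 and 6.20 in WT iPSC and 6.16 in WT ESC, all below the yardstick.

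Apart from H2ac1, the H2A members did not pass the test. H2ac10 was 11.82 and 11.82 in KO iPSC, against 11.97 and 12.34 in WT iPSC and 12.37 in WT ESC (difference -0.41, SE 0.14, limma adjusted p = 0.114). H2ac20 differed by -0.80 (SE 0.28, limma adjusted p = 0.113). Both genes encode canonical H2A, and in both the KO arrays lay below all WT pluripotent arrays. H2ac15 was 9.27 and 9.38 in KO iPSC, against 9.17 and 9.88 in WT iPSC and 9.97 in WT ESC (difference -0.35, limma adjusted p = 0.399). H2ac21 was 9.20 and 9.32 in KO iPSC, against 8.71 and 10.43 in WT iPSC and 10.42 in WT ESC, with a difference of -0.59 (limma adjusted p = 0.503). In both genes the KO values lay inside the range of the WT iPSC replicates. A dimmer probe set of H2ac21 differed by -0.15. H2ac12 differed by -0.05 and was below the yardstick on all 7 arrays.

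Of the H2B genes, H2bc18 was 8.87 and 8.90 in KO iPSC, against 9.58 and 9.92 in WT iPSC and 9.43 in WT ESC. The groups did not overlap, every array was above the yardstick, and H2bc18 fell by 0.76 (SE 0.15, limma adjusted p = 0.0273), 1.69-fold. H2bc14 was 5.16 and 5.03 in KO iPSC, against 5.76 and 6.36 in WT iPSC and 5.72 in WT ESC, with a log2 difference of -0.85 (SE 0.21, limma adjusted p = 0.047). All 7 values of H2bc14 were below the yardstick. Its adjusted p became 0.0597 when each array was centred on its median.

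The remaining H2B genes did not pass the test in KO iPSC. H2bc12 differed by -0.37 (SE 0.16, limma adjusted p = 0.177). H2bc3 was 11.38 and 11.19 in KO iPSC, against 10.82 and 11.42 in WT iPSC and 11.47 in WT ESC, a difference of 0.05 with a limma adjusted p of 0.901. H2bc9 was 6.38 and 5.99 in KO iPSC, against 6.89 and 7.93 in WT iPSC and 7.12 in WT ESC, with a difference of -1.13 and a limma adjusted p of 0.0704. Its groups did not overlap.

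In H4, 0 of 7 members passed limma's test, and 3 were lower at an unadjusted p under 0.05. H4c12 was 12.95 and 12.96 in KO iPSC, against 13.03 and 13.05 in WT iPSC and 13.08 in WT ESC (difference -0.10, limma adjusted p = 0.414). H4c9 was 6.48 and 6.70 in KO iPSC, against 6.17 and 8.30 in WT iPSC and 6.97 in WT ESC (difference -0.56, limma adjusted p = 0.569). H4c14 differed by -0.40 (limma adjusted p = 0.082). H4c17 was 4.60 and 4.29 in KO iPSC, against 4.90 and 8.14 in WT iPSC and 7.01 in WT ESC. WT iPSC 1 stood with the KO arrays in H4c17, and the difference of -2.24 (SE 0.89) had a limma adjusted p of 0.154.

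**Figure D2:**
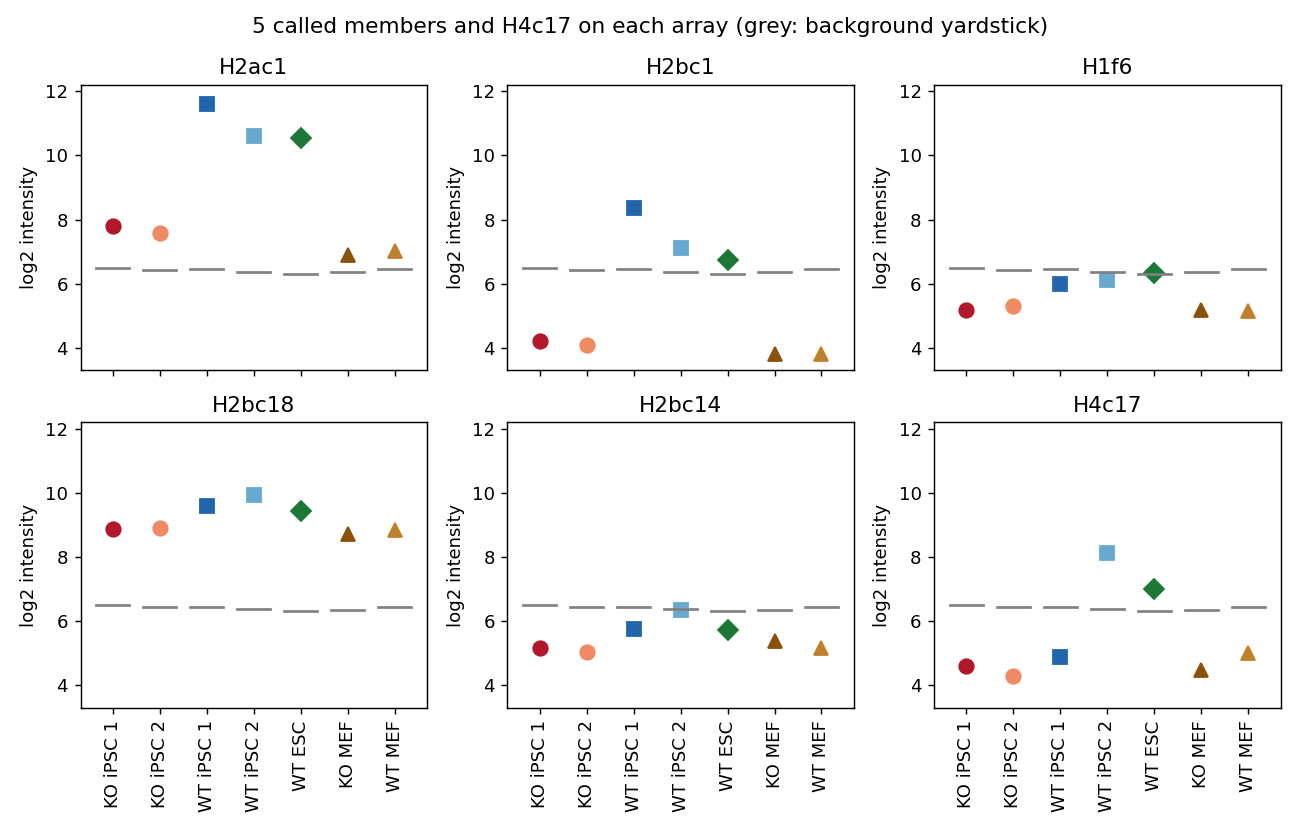
Log2 intensity on each of the 7 arrays for the 5 genes that were lower in KO iPSC and for H4c17, with the background yardstick of each array as a grey line. H2ac1 and H2bc1 are high on the 3 WT pluripotent arrays, H2bc18 differs by less with all arrays above the yardstick, and in H4c17 WT iPSC 1 (4.90) lies beside the KO iPSC arrays (4.60 and 4.29).

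The WT iPSC replicates differed in histone genes more than in genes at large. WT iPSC 2 was above WT iPSC 1 in 23 of 26 members, with a median gap of 0.33, while 51.1% of all genes were higher in it, with a median gap of 0.005. In 6 members (H1f1, H2ac21, H2bc1, H2bc9, H4c9 and H4c17) the WT iPSC arrays were over 1 log2 unit apart, beside 1.58% of all genes. The KO iPSC arrays were that far apart in 0 members and in 0.018% of all genes. Among the WT pluripotent arrays, WT iPSC 1 was the lowest in 19 members, beside 35% of all genes, and the highest in 2, H2ac1 and H2bc1. WT iPSC 1 also had the highest fibroblast marker sum of the pluripotent arrays, and the part of that in the spread was not tested.

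WT iPSC 1 was singled out from the values of these members, being the lowest WT pluripotent array in 19 of them. Leaving it out must make the differences of those 19 more negative. The values without it thus show how far the result depends on this array and are no separate support. Without WT iPSC 1, 17 of the 26 members were lower in KO iPSC than on the 2 WT pluripotent arrays that remain, beside 11.0% of all genes. All 26 differences were then negative, with a median of -0.63. H2ac1 differed by -2.89 (SE 0.10, limma adjusted p = 0.000956) and H2bc1 by -2.77 (SE 0.15, limma adjusted p = 0.00151). H4c17 joined at -3.13 (SE 0.38, limma adjusted p = 0.00847), H1f1 at -1.79, H2ac21 at -1.16 and H1f5 at -0.80. Both KO iPSC values of H4c17 and H1f1 were under the yardstick, so their differences are not measured folds. The count was 5 without WT ESC and 5 without WT iPSC 2, beside 9.55% and 5.78% of all genes. With either KO iPSC array left out, the KO group holds 1 array. The members then did not pass, and far fewer of all genes passed than with both KO arrays. The median difference of the members was -0.43 without KO iPSC 1 and -0.49 without KO iPSC 2, beside 0.03 over all genes.

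**Figure D3:**
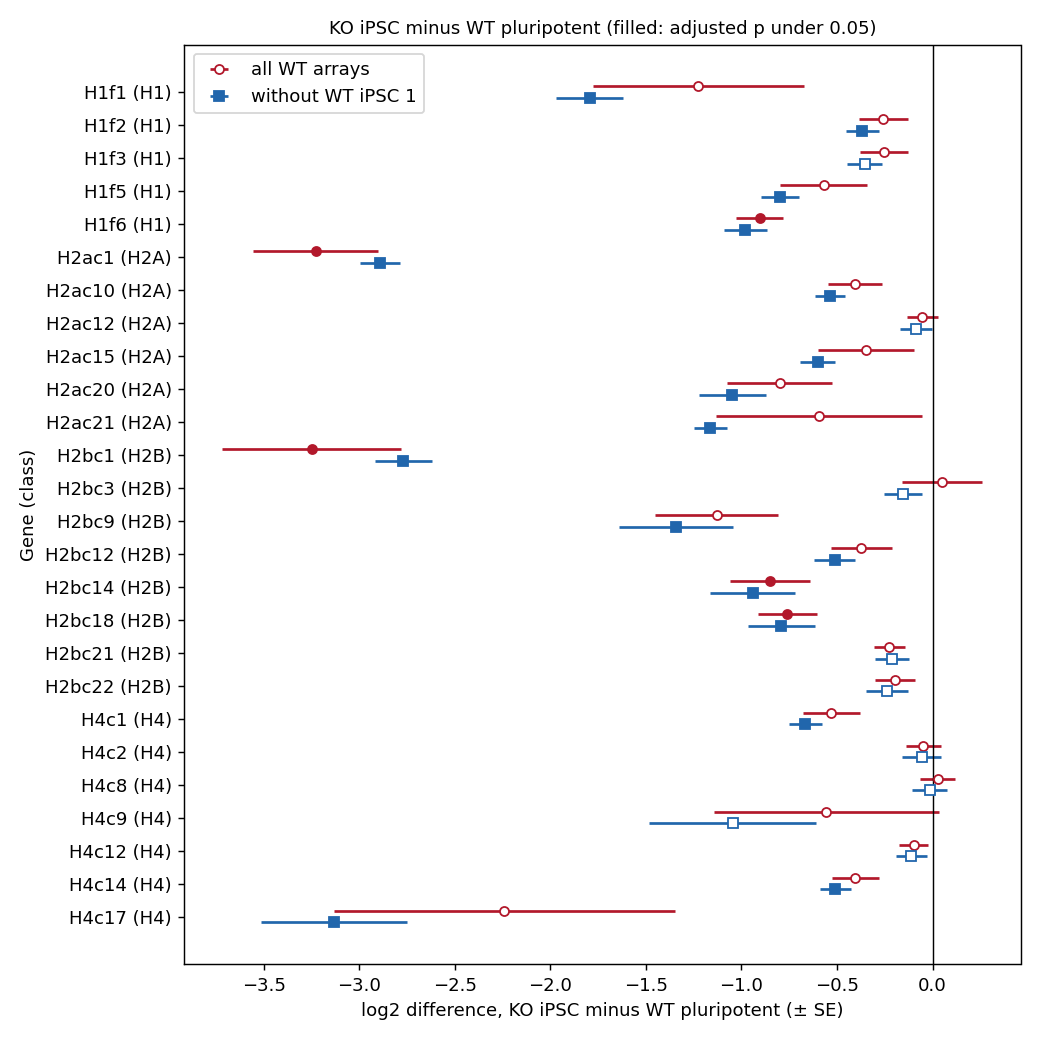
Log2 difference KO iPSC minus WT pluripotent (± SE) for each member, in red with all 3 WT pluripotent arrays and in blue without WT iPSC 1; filled symbols passed limma's test at an adjusted p under 0.05. With all arrays 5 members are filled, and without WT iPSC 1 the count is 17. WT iPSC 1 was singled out from the values of these members, so the blue points are no separate support.

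Within iPSC alone, KO against WT, the 5 genes lower in KO were H2ac1, H2bc1, H1f6, H2bc18 and H2bc14, and 0 members were higher. This comparison shares the KO and WT iPSC arrays with the one above. Of all genes 9.55% were lower and 6.93% higher, and the median difference of the members was -0.34. At an unadjusted p under 0.05, 8 members were lower and 0 higher in limma, beside 16.6% and 14.7% of all genes. H2ac1 fell by 3.41 (SE 0.32, limma adjusted p = 0.00443), 10.7-fold. H2bc1 fell by 3.58 (SE 0.40, limma adjusted p = 0.0068), at least 2.40-fold. H2bc18 fell by 0.87 (SE 0.13, limma adjusted p = 0.0157), 1.83-fold. H1f6 differed by -0.81 (limma adjusted p = 0.00859) and H2bc14 by -0.96 (limma adjusted p = 0.0383). Leaving out 1 iPSC array leaves 1 in its group, whose spread then does not enter the test, so only differences are given. With each of the 4 iPSC arrays left out in turn, H2ac1 differed by -3.90 to -2.93 and H2bc1 by -4.21 to -2.96. The median of the members was -0.60 without WT iPSC 1 and -0.12 without WT iPSC 2.

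iPSC were next set against MEF, with genotype in the model. In iPSC 5 histone genes were higher (H1f5, H2ac10, H2ac20, H2bc12 and H4c12) and 1, H4c14, was lower. Of all genes 16.0% were higher and 14.7% were lower. The median difference over the 26 members was 0.49, and over the H2A members 0.94. Over the 26 members it was 0.21 without WT MEF and 0.30 without WT iPSC 2. The count of higher members was 3 without KO iPSC 1, 2 without KO iPSC 2 and 9 without KO MEF, beside 10.5%, 10.1% and 17.2% of all genes, and H4c14 did not pass without either KO iPSC array.

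H2bc12 was 11.29 and 11.28 in KO iPSC and 11.39 and 11.69 in WT iPSC, against 9.46 in KO MEF and 10.36 in WT MEF. All iPSC arrays exceeded both MEF arrays, and the gene was 2.84-fold higher (log2 difference 1.505, SE 0.18, limma adjusted p = 0.00348). H1f5 was 8.45 in KO MEF and 9.81 in WT MEF, and was 2.47-fold higher in iPSC (log2 difference 1.31, SE 0.29, limma adjusted p = 0.0222). H2ac10 was 1.89-fold higher (log2 difference 0.92, SE 0.14, limma adjusted p = 0.00658), against 10.77 in KO MEF and 11.36 in WT MEF. H1f5 encodes a somatic linker histone, and H2bc12 and H2ac10 encode canonical core histones.

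H2ac20 was 1.96-fold higher in iPSC (limma adjusted p = 0.0489) and H4c12 1.41-fold (limma adjusted p = 0.0101). The adjusted p of H2ac20 was 0.0533 after median centring. H4c14 was 6.02 and 5.98 in KO iPSC and 6.19 and 6.48 in WT iPSC, against 6.54 in KO MEF and 6.86 in WT MEF, and was 1.45-fold lower in iPSC (log2 difference -0.53, SE 0.11, limma adjusted p = 0.0175). It is the exception in direction among the 6, but it was under the yardstick on all iPSC arrays except WT iPSC 2. Its fold thus rests on values near background. H2ac1 and H2bc1, with differences of 2.44 and 2.14, did not pass here (limma adjusted p of 0.0664 and 0.124). Their KO iPSC values lay nearer to the MEF values than to those of WT iPSC.

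Between the MEF arrays, 1 per genotype and so without a test, 21 of the 26 members were lower in KO MEF than in WT MEF, while 53.6% of all genes were. The median difference was -0.30 over the members and -0.86 over the H1 genes, beside -0.02 over all genes. H1f5 was 8.45 in KO MEF and 9.81 in WT MEF, and H1f2 was 9.54 in KO MEF and 10.69 in WT MEF. H2bc12 was 0.90 lower and H2bc22 0.42 higher in KO MEF. S phase genes moved with these values: 23 of 23 on a list of replication genes were lower in KO MEF, with a median difference of -0.93. Their part in the histone difference was not tested.

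**Figure D4:**
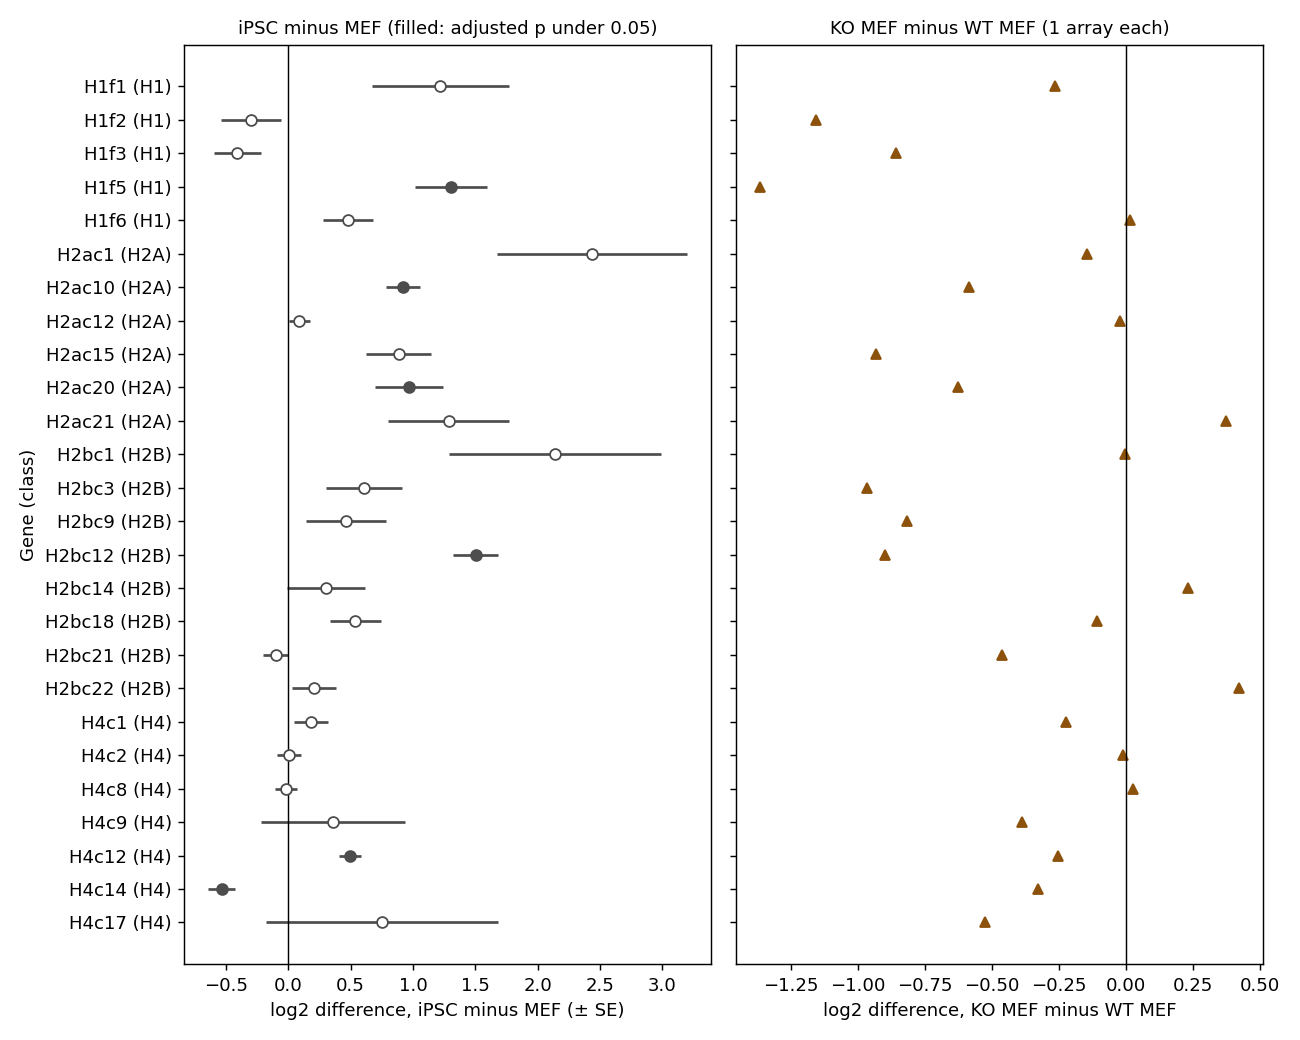
Left, log2 difference iPSC minus MEF (± SE) for each member, with filled points for limma adjusted p under 0.05; right, log2 difference KO MEF minus WT MEF from 1 array each, with no test. In the left panel 5 filled points lie right of 0 and 1 left of it, and in the right panel 21 of 26 points lie left of 0.

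The KO minus WT difference was compared between iPSC and MEF as an interaction over all 7 arrays. It was more negative in iPSC for 2 members, H2ac1 and H2bc1, and more positive for 0, beside 5.48% and 3.07% of all genes. At an unadjusted p under 0.05, limma gave 6 and 4 members, beside 13.5% and 12.1% of all genes. For H2ac1 the interaction was -3.27 (SE 0.56, limma adjusted p = 0.0332), from -3.41 in iPSC and -0.14 in MEF. For H2bc1 it was -3.58 (SE 0.70, limma adjusted p = 0.0452), from -3.58 in iPSC and 0.00 in MEF, where both arrays were below the yardstick. The H2bc1 interaction did not pass with the trended, robust variance model (adjusted p = 0.106), with quantile normalization (adjusted p = 0.0502) or over all probe sets (adjusted p = 0.0564) in limma. H1f2, with an interaction of 0.98 (limma adjusted p = 0.057), and H1f6, at -0.83 (limma adjusted p = 0.0535), did not pass. Without either KO iPSC array, which leaves 1 in that group, the members did not pass, and far fewer of all genes passed too. With each of the 4 iPSC arrays left out in turn, the interaction was -3.76 to -2.78 for H2ac1 and -4.21 to -2.95 for H2bc1. The median over the members was -0.04 without KO iPSC 1 and -0.18 without KO iPSC 2. It was -0.29 without WT iPSC 1 and 0.15 without WT iPSC 2.

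The 37 probe sets that list several histone genes, of which 34 have distinct values, name no gene and were fitted over all 33649 probe sets. They hold 12 probe sets of H3, each listing 4 or 8 symbols. Of the 34, 1 was lower in KO iPSC than in WT pluripotent cells and 0 were higher, beside 6.44% and 5.61% of all probe sets, while 8 and 0 did so at an unadjusted p under 0.05 in limma, beside 28.6% of all probe sets in either direction. That probe set lists 6 H4 symbols and was 6.83 and 6.53 in KO iPSC, against 7.32 and 7.42 in WT iPSC and 7.60 in WT ESC (difference -0.77, SE 0.13, limma adjusted p = 0.0202). In 22 of the 34 both KO iPSC arrays lay below all WT pluripotent arrays, beside 19.5% of all probe sets.

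H3 probe sets ran from 4.03 to 9.78, with 4 of 12 above the yardstick on all 7 arrays and 5 on none. Their median difference was -0.13 for KO iPSC minus WT pluripotent cells and -0.01 for iPSC minus MEF. An H3 probe set with 8 symbols was 5.05 and 4.99 in KO iPSC, against 6.63 and 6.07 in WT iPSC, and passed in that comparison (difference -1.33, limma adjusted p = 0.0168). With WT ESC, at 5.69, among the WT arrays it did not pass (difference -1.11, limma adjusted p = 0.0534). It was 7.50 in KO MEF and 7.62 in WT MEF. Both MEF arrays were thus above all pluripotent arrays for this H3 probe set.

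In iPSC against MEF, 4 shared probe sets were higher in iPSC and 7 lower, beside 13.4% and 11.6% of all probe sets. In H2B 1 was higher and 3 were lower, and in H2A 2 were higher and 1 was lower. An H2B probe set annotated to H2bc4, H2bc6 and H2bc8 together was 10.02 and 9.87 in KO iPSC and 11.11 and 10.90 in WT iPSC. It was 10.38 in WT ESC, 12.08 in KO MEF and 11.89 in WT MEF. This probe set was also lower in KO than in WT iPSC (difference -1.06, limma adjusted p = 0.00778). With WT ESC among the WT arrays it did not pass (difference -0.85, limma adjusted p = 0.0607). In KO against WT iPSC 4 of the 34 were lower and 0 higher, beside 7.06% and 5.40% of all probe sets. At an unadjusted p under 0.05 in limma 7 and 0 were, beside 28.0% in either direction. In the interaction 1 of the 34, this H2B set, was more negative in iPSC and 1, of H3, more positive, beside 3.66% and 2.14% of all probe sets.

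Genes that act on histones, the other histones and S phase genes were taken from 6 lists, and where a list has 0 calls in a direction the count at an unadjusted p under 0.05 in limma follows. Of all genes 8.81% were lower and 6.89% higher in KO iPSC than in WT pluripotent cells, or 16.1% and 15.5% unadjusted. Of 12 genes for histone mRNA processing, 3 were lower in KO iPSC than in WT pluripotent cells and 1 was higher, with a median difference of -0.39. The lower ones were Lsm11 of the U7 snRNP (-0.68, SE 0.17, limma adjusted p = 0.0494), the endonuclease Cpsf3 that cuts histone pre-mRNA (-0.57, limma adjusted p = 0.0212) and the cap-binding Ncbp1 (-0.42, limma adjusted p = 0.0289). Srrt was higher by 0.50 (limma adjusted p = 0.0162). Slbp, the stem-loop binding protein gene, was 9.86 and 9.78 in KO iPSC, against 9.996 and 10.32 in WT iPSC and 10.48 in WT ESC, and did not pass (-0.45, limma adjusted p = 0.112). Casp8ap2 differed by -0.16 (limma adjusted p = 0.214).

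Of 7 genes for histone gene transcription, 2 were lower in KO iPSC and 0 higher (2 and 0 unadjusted), with a median of -0.19. These were the cyclin gene Ccne1 (-0.86, SE 0.11, limma adjusted p = 0.00722) and Hira (-0.61, limma adjusted p = 0.00877). The HIRA protein deposits H3.3, and its yeast counterparts repress histone genes. Npat differed by 0.07 and Hinfp, a factor of H4 promoters, by 0.29, with limma adjusted p of 0.725 and 0.274. Of 7 genes for histone mRNA decay, 0 were lower (2 unadjusted) and 1, the uridyltransferase Tut7, was higher (0.42, limma adjusted p = 0.0381), with a median of -0.06.

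Of 9 replication-independent histone genes, 3 were lower and 0 higher (6 and 0 unadjusted), with a median of -0.36: Macroh2a1 (-1.10, limma adjusted p = 0.00521), H1f10 (-1.01, limma adjusted p = 0.0123) and the centromeric H3 gene Cenpa (-0.36, limma adjusted p = 0.0339). Of 14 histone chaperone genes, Asf1b (-0.58, limma adjusted p = 0.0127) and Nasp (-0.64, limma adjusted p = 0.0169) were lower and 0 were higher (5 and 0 unadjusted), with a median of -0.10. Both proteins carry H3 and H4.

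Of 23 S phase genes, 6 were lower in KO iPSC and 0 higher (12 and 2 unadjusted), with a median of -0.27. The list median was 10.69 and 10.68 in KO iPSC, against 10.92 and 10.99 in WT iPSC and 11.00 in WT ESC. The largest differences were in Rrm2 of ribonucleotide reductase (-1.01, limma adjusted p = 0.00218), the primase gene Prim1 (-0.65, limma adjusted p = 0.00641), the GINS subunit gene Gins1 (-0.50, limma adjusted p = 0.035) and the thymidine kinase gene Tk1 (-0.47, limma adjusted p = 0.0398). Pcna differed by 0.04 and Ccna2 by -0.22, with limma adjusted p of 0.742 and 0.155. The median difference of the S phase list lay between that of all genes (0.03) and that of the histone members (-0.47), and its part in the histone result was not tested. Against MEF, 22 of the 23 S phase genes, 13 of 14 chaperone genes and 7 of 7 transcription genes were higher in iPSC, beside 16.0% of all genes. In the other lists 7 of 12 processing genes, 4 of 7 decay genes and 3 of 9 replication-independent histone genes were higher. In decay 1 gene was lower and in the other lists 0, beside 14.7% of all genes. At an unadjusted p under 0.05 in limma, 1 processing gene and 1 chaperone gene were lower, beside 19.0% of all genes. In the S phase, transcription and replication-independent lists 0 were.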

How the data were processed

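RNA of 7 samples was measured on 1 array each. The deposited values are intensities of probe sets on a linear scale (9.67 to 13043), which the authors made by RMA in Affymetrix Expression Console (version 1.3.0.187), according to the submitters' processing notes, a source that gives no steps; the design had assumed log2 values, so log2 was taken here with no further normalization. Of 33649 probe sets the platform annotation gave 23521 a single symbol, 1814 several, and did not list 8314. The probe set with the highest mean stood for each of 22180 genes, and no dim gene was left out. Levels of different probe sets cannot be compared with each other.

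Tests were made with limma 3.58.1 (R 4.3.3; lmFit and eBayes), tested first on simulated data, and p-values were adjusted by Benjamini-Hochberg over every gene, with 0.05 as the threshold. KO iPSC against WT pluripotent used 5 arrays, iPSC against MEF 6 with genotype as a covariate, the others all 7 with 1 term per group. A fold is given as "at least" where 1 side was at or under the background yardstick on every array, against that yardstick, and not where both were. The few arrays limit precision. Probes of near-identical histone genes may also take up RNA of other copies.

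The members, lists and tests were chosen with earlier results of these data known. Named with values were, in each class, up to 5 members passing in KO iPSC against WT pluripotent, the 2 with the highest mean, all H1 genes, up to 2 passing in each other comparison, up to 4 passing genes of each list, and Slbp, Npat, Casp8ap2, Hinfp, Pcna, Ccna2 and Nanog; others, such as H2ac21, H2bc9, H2bc22 and H4c17, were chosen after their values were seen. Of 100 list symbols 91 were found. Over all genes, the deviations of same-numbered KO and WT iPSC arrays correlated at r = 0.017. With 2 arrays per genotype this cannot exclude pairing, and numbers were not taken as pairs.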

Additional observations from a re-analysis of the deposited data

Results flagged for a closer look

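The KO minus WT difference of the TH2A gene H2ac1 differed between iPSC and MEF by -3.27 on the log2 scale (limma adjusted p = 0.0332). It was -3.41 in iPSC, lower in both KO arrays than in both WT arrays, and -0.14 in MEF. For the TH2B gene H2bc1 the same interaction was -3.58 (limma adjusted p = 0.0452), with KO MEF and WT MEF both at 3.80, below the background yardstick. The H2bc1 interaction had a limma adjusted p of 0.0384 to 0.106 under 5 other settings and did not pass in 3 of them. Neither gene passed without either KO iPSC array, where far fewer of all genes passed too.

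Of the probe sets shared by several genes, the H2B set of H2bc4, H2bc6 and H2bc8 had an interaction of -1.24 (limma adjusted p = 0.036), with -1.06 in iPSC and 0.18 in MEF. An H3 set with 8 symbols had an interaction of 1.15 (limma adjusted p = 0.0455). It was 4.84 and 4.86 in KO iPSC, against 5.10 and 4.83 in WT iPSC, and 4.28 in KO MEF, against 5.54 in WT MEF, all below the yardstick. Each MEF value comes from a single array, assumed to vary like the others.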

How the results depend on the processing

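Of 26 members, 5 were lower in KO iPSC than in WT pluripotent cells, beside 8.81% of all genes. Under the milder filter on dim genes (14786 genes kept, 14 of them members) 2 were lower, beside 13.5% of the genes kept. The stricter filter (11090 kept, 11 members) gave 2, beside 17.4%. Under both filters the members thus passed at a share near that of all genes kept. With a WT array left out 5 to 17 were lower, beside 5.78% to 11.0% of all genes. In KO against WT iPSC the count of 5 became 2 and 2 under these filters, beside 14.5% and 18.3% of the genes kept. No count is given there with an array left out, since 1 array is then left in its group. Whether replicate numbers mark pairs cannot be told from 2 arrays per genotype. With a replicate block 6 members were lower (all genes: 1948 lower and 1331 higher, against 2118 and 1538). In iPSC against MEF, the 1 lower member became 0 under the stricter filter and 0 to 2 with an array left out, and the 5 higher became 2 to 9. In the interaction, the 2 lower became 1 with quantile normalization, 1 under each filter, 1 over all probe sets (a setting chosen after seeing the data) and 0 to 10 with an array left out; the 0 higher became 1 with quantile normalization, 1 with the trended, robust model and 0 to 7 with an array left out. The filters test fewer members, and an array left out can leave 1 in its group, whose spread then does not enter the test. In the interaction far fewer of all genes passed without either KO iPSC array, and more passed without either WT iPSC array. In iPSC against MEF fewer of all genes passed without either KO iPSC array, and more without KO MEF. The ranges with an array left out are thus not read as specific to the histone genes. Otherwise the cause was not tested. For the 18 gene results that passed, 163 of 205 alternative values passed too, 42 did not, 29 of them with a KO iPSC array left out, and 0 reversed. Over all genes, 1954 were lower and 1529 higher in KO iPSC than in WT pluripotent cells, against 1620 and 1910 with each array centred on its median, and 1679 and 1896 if arrays were quantile normalized; with an array left out, 184 to 2438 were lower. Levels under the yardstick limit H2bc14, H1f6 and, in KO iPSC and MEF, H2bc1, H1f1 and H4c17. They also limit H4c14, which was under it on all iPSC arrays except WT iPSC 2.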
